A study of Mus musculus with 2 samples.

Results

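The genes described are the integrins and the core proteins that tie them to the cytoskeleton: 26 integrin subunit genes and 8 genes for talins, kindlins, vinculin, focal adhesion kinase and integrin-linked kinase. They were taken by gene symbol, and all 34 were found among the 32285 genes of the count tables. Their RNA was read cell by cell in tissue of the injured mouse tendon, 14 days after surgery. The animals were 12 weeks old, with 1 library from TrkA WT mice and 1 from TrkA F592A mice, and each library pooled 3 animals. TrkA is the receptor for nerve growth factor, and F592A exchanges a residue of its kinase so that an engineered inhibitor can block it. The sample of that genotype carries the inhibitor's name, 1NMPP1 (INMPP1 in the labels). F592A changes 1 residue, which UMI counts do not show, so the genotype labels could not be checked. The labels do not say whether WT mice also received the inhibitor, so the mutation, the inhibitor and the block of the kinase cannot be told apart, and neither can the pools of animals.

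Integrins are membrane receptors built from an alpha and a beta chain, and the pair decides the ligand. Collagen, laminin, proteins with an Arg-Gly-Asp (RGD) motif such as fibronectin, and counter-receptors on other cells are each bound by their own group of pairs. Talin and kindlin bind the beta chain's tail and switch the receptor on, vinculin reinforces the link to actin, and focal adhesion kinase and integrin-linked kinase sit at the same complex. In tendon these complexes hold cells to collagen fibres under load, and in healing tissue they serve migration, matrix remodelling, leukocyte entry and the release of active TGF-beta.

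The WT library held 222874195 unique molecular identifiers (UMIs, each marking 1 captured RNA molecule) in 14868 barcodes, and the F592A library 181472230 UMIs in 10677 barcodes. After filtering and removal of doublets 11254 and 8449 cells remained, with medians of 15874 and 17880 UMIs. The libraries shared 764 barcodes, and 96 of these were kept as cells in both. Without the 114 WT and 112 F592A cells whose barcode is in both libraries, every count of genes called in a class was the same, and 28 named log2 ratios moved by at most 0.03. Cells were grouped into clusters without use of the 34 genes and named from marker genes, so each class is strictly "stromal-like", "macrophage-like" and so on. The stromal class held 6418 WT and 4572 F592A cells, the macrophage class 2543 and 1693, the endothelial class 588 and 645 and the mural class 619 and 618. Mural cells are the pericytes and smooth muscle cells around vessels. Levels were also read in lymphatic endothelial cells (107 and 96), neutrophils (232 and 150), dendritic cells (166 and 122) and T or NK cells (102 and 151). With each cell assigned alone by its markers, 108 of 203 lymphatic and 200 of 382 neutrophil cells kept their class. The same held for 11 of 288 dendritic and 87 of 253 T or NK cells. Of the dendritic cells, 68 were assigned as stromal, 44 as macrophage and 165 to no class. Of the T or NK cells, 46 were assigned as stromal and 117 to no class. All 7 tenocyte markers were found in the stromal class, at a summed 5339 and 6044 CPM (UMI counts scaled to a class and library total of 1000000).

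With 1 library per genotype there is no replicate check and no difference was tested. All intervals are at 95% and speak of counting error alone. A gene was measured in a class with at least 100 UMIs over both libraries, and called higher or lower in F592A when its CPM was at least 1.5-fold apart. Log2 ratios are F592A over WT, and the value given for a gene in a comparison is its log2 ratio unless CPM is named. Pairs of values are given with WT first. Levels are compared between classes for the same gene, never between genes, since transcript length and capture differ.

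Marker RNA of one class read in another sets a floor to low levels. Whether it was free RNA, cells placed in the wrong class or the cells' own RNA was not tested. The 8 stromal markers were read in macrophages at a median of 2.32% and 1.97% of their stromal level, in T or NK cells at 11.6% and 9.73%, and in lymphatic cells at 20.7% and 10.7%. The 8 macrophage markers were read in stromal cells at a median of 0.675% and 0.338% of their macrophage level, a value that differed between the libraries. In dendritic cells they were read at a median of 9.79% and 7.57%. Some members overlap other genes, such as Itga1 (which hosts Pelo in an intron), Ilk (with Taf10), Vcl (with Ap3m1) and Itga4 (with Cerkl), and no source used here says whether the counting used strand.

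Promoter sequences show what these genes have in front of their start sites, and 4 are printed because the results turn on them: a leukocyte integrin, the leukocyte kindlin, and the alpha1 and alpha8 chains of vessel walls. Each is the 150 bases before the RefSeq start site (GRCm38.p6), 5′ to 3′ on the gene's strand. Capitals mark matches on either strand to 3 short motifs, GAGGAA (the core bound by PU.1, an ETS factor of myeloid cells), TGTGGT (the RUNX core) and GGGCGG (the GC box).
Itgam: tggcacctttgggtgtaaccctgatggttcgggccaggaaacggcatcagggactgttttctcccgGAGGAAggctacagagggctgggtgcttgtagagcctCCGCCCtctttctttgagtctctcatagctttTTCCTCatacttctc
Fermt3: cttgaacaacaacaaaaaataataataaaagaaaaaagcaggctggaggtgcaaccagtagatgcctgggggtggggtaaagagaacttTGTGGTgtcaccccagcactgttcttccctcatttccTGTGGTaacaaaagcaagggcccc
Itga1: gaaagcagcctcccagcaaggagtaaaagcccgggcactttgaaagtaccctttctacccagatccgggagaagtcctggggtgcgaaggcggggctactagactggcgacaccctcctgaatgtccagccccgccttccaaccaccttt
Itga8: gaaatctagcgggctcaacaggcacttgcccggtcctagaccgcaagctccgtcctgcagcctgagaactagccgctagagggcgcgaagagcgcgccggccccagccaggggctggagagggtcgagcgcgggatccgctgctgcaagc
These windows lie at chr7:128062490-128062639, plus strand (Itgam), chr19:7019470-7019619, minus strand (Fermt3), chr13:115101965-115102114, minus strand (Itga1) and chr2:12301945-12302094, minus strand (Itga8). Itgam held 2 matches to GAGGAA and 1 to GGGCGG, Fermt3 held 2 to TGTGGT, and Itga1 and Itga8 held none. In these 4 windows no match overlapped another. They do not stand for the other members. Itgax and Itgb7, known from leukocytes, held no match to the 3 motifs. GAGGAA was also matched in Itga2b, Itga3, Itga5, Itga11, Itgav, Itgb1, Itgb6 and Tln1. TGTGGT was also matched in Itga3, Itga4 and Ilk. Of 32851 promoter windows of this length, 14.5% held GAGGAA, 8.40% held TGTGGT, 28.6% held GGGCGG and 0.916% held a CArG box, the serum response element, which was searched on both strands too. The table held 24 of the 34 genes. A match is a description of the letters and shows no binding.

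The genes divided by cell class. Of the 34, 26 reached 20 CPM in both libraries of at least 1 class, and for 23 of these the class with the highest level was the same in both libraries. Mural cells led for 7 genes (Itga1, Itga7, Itgb1, Tln1, Fermt2, Ilk and Vcl), and stromal cells (Itga11, Itgb5, Tln2), macrophages (Itga5, Itgav, Fermt3) and neutrophils (Itgal, Itgam, Itgb2) for 3 each. Endothelial cells led for Itga3 and Itga6, lymphatic cells for Itga9 and Itgb4, T or NK cells for Itgae and Itgb7, and dendritic cells for Itgax. Itga4, Itgb3 and Ptk2 had a different leading class in each library. Some leads were narrow. In WT, Itga5 and Fermt3 in macrophages were 1.01-fold and 1.03-fold above the next class, and Itgb4 in lymphatic cells 1.12-fold. No minimum of UMIs was set for a lead. A single UMI amounts to 2.11 and 1.17 CPM in T or NK cells and 1.69 and 1.63 CPM in neutrophils. Low values there rest on few UMIs. The heat map of levels by class shows the division by class.

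**Figure D1:**
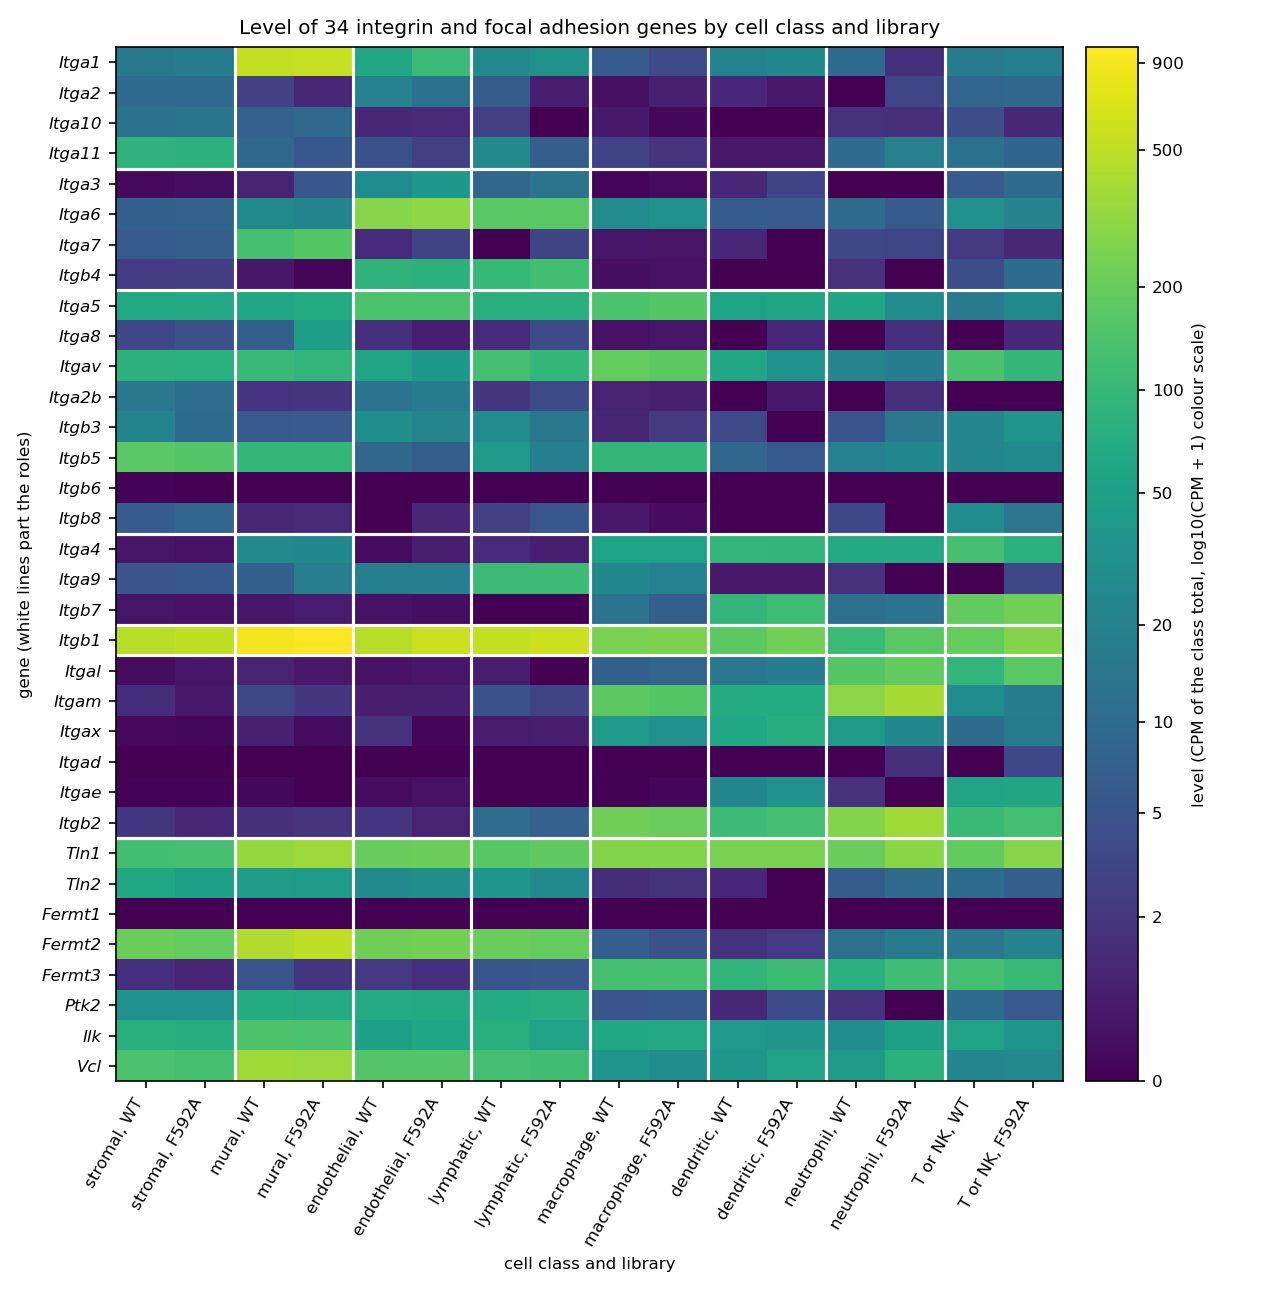
Level of each of the 34 genes (rows, grouped by role) in 8 cell classes of the WT and F592A libraries (columns), as CPM of the class total on a log10(CPM + 1) colour scale. Itga1 and Itgb1 are brightest in mural cells, Itga11 in stromal cells and Itgb2 in leukocytes, in both libraries.

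Among the collagen receptors, Itga1, the alpha1 chain that binds basement membrane collagen, was highest in vessel wall cells among the 8 classes. The 21 Schwann-like cells, too few for a class, were at 657 and 337 CPM. Itga1 was at 536 CPM (WT) and 551 CPM (F592A) in mural cells, followed by endothelial cells (61.7 and 111 CPM). In the other 6 of the 8 classes it lay at or below 32.8 CPM. After each cell was thinned to 2000 UMIs, 57.1% of WT and 56.8% of F592A mural cells carried an Itga1 UMI, against 1.14% and 0.990% of macrophages. The median mural cell had 10157 and 11908 UMIs and the median macrophage 10209 and 13227. Itga11, the alpha11 chain that binds fibrillar collagen, was at 88.4 CPM (WT) and 86.7 CPM (F592A) in stromal cells. In mural and endothelial cells it was at 9.42 and 5.48 CPM and 4.70 and 2.73 CPM. In lymphatic cells it was at 24.9 and 7.02 CPM, 28.2% and 8.09% of the stromal level, where the stromal markers were at medians of 20.7% and 10.7% of theirs. Itga10, a further collagen receptor chain known from cartilage, was at 12.2 and 13.5 CPM in stromal cells and lower in the other classes. Itga2, known from platelets and epithelium, was at 20.3 and 12.6 CPM in endothelial and 10.1 and 10.1 CPM in stromal cells.

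Within the stromal class Itga2, Itga10 and Itga11 were all low in clusters 3 and 12. Itga10 was highest in cluster 4, led by Gpha2, Mstn and Chad, at 40.2 and 34.7 CPM. In cluster 3 (Gdf10) it was at 2.81 and 3.48 CPM and in cluster 12 (Scara5) at 3.73 and 2.72 CPM. Itga11 was highest in cluster 24 (Prss35, Rspo2; 80 and 211 cells) at 188 and 161 CPM and next in cluster 2 (Rbp4) at 123 and 115 CPM. It was lowest in cluster 12 at 20.2 and 29.7 CPM and in cluster 3 at 39.2 and 35.8 CPM. Itga2 was at 20.1 and 19.6 CPM in cluster 4, 20.4 and 18.1 CPM in cluster 24 and 3.48 and 5.26 CPM in cluster 3. Among the 9 stromal clusters with at least 10 cells in each library, clusters 3 and 12 were among the 3 with the lowest WT level for each of the 3 genes. The plot of levels by cluster shows this for Itga10 and Itga11.

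Among the classes read for level, laminin receptors were highest in vessel cells. The Schwann-like cells, too few for a class, also held Itga7 and Itgb4, at levels given under other observations. Itga6, the laminin-binding alpha6 chain, was at 284 CPM (WT) and 305 CPM (F592A) in endothelial cells and at 171 and 170.0 CPM in lymphatic cells. Its partner Itgb4, the beta4 chain, was at 100.3 and 122 CPM in lymphatic and 89.5 and 83.0 CPM in endothelial cells, and at 2.40 and 2.53 CPM in stromal cells. Itga3 was at 27.8 and 38.6 CPM in endothelial and 8.75 and 13.3 CPM in lymphatic cells. Itga7, the laminin receptor of muscle, was at 131 CPM (WT) and 161 CPM (F592A) in mural cells, and the next class, stromal cells, was at 6.27 and 6.99 CPM.

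RGD receptor chains were spread more widely. Itga5, the fibronectin receptor chain, was at 142 and 160.4 CPM in macrophages and 140.5 and 139.7 CPM in endothelial cells, neighbours whose WT values differ by less than their counting intervals. In stromal cells it was at 66.1 and 63.2 CPM. Itgav, the alphav chain shared by the receptors that free TGF-beta, was at 197 and 175 CPM in macrophages, 107 and 93.3 CPM in mural and 84.8 and 79.8 CPM in stromal cells. Itgb5, a partner of alphav, was at 168 CPM (WT) and 156 CPM (F592A) in stromal cells, and at 95.5 and 96.6 CPM in mural cells and 94.8 and 96.2 CPM in macrophages. Itgb3, the other main partner of alphav, was at 30.2 and 22.1 CPM in endothelial, 21.4 and 10.6 CPM in stromal and 23.2 and 35.2 CPM in T or NK cells. Itga8, the alpha8 chain, was at 7.39 and 47.7 CPM in mural and 3.52 and 4.55 CPM in stromal cells. Itgb8 was at 6.54 and 8.40 CPM in stromal cells and 27.4 and 14.1 CPM in T or NK cells. Itgb6, an epithelial chain, had 12 and 3 UMIs in all cells of the WT and F592A libraries.

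Itga2b, the platelet alphaIIb chain, was read in stromal cells at 14.98 and 11.0 CPM (2343 and 1337 UMIs) and in endothelial cells at 13.0 and 15.9 CPM. Beside it the 5 platelet markers Ppbp, Gp1bb, Gp9, Gp1ba and Tubb1 summed to 1.41 and 1.13 CPM in stromal cells, with Gp1ba and Tubb1 at 0 UMIs in both libraries, and to 0.134 and 0.304 CPM in endothelial cells. Pf4, a platelet gene that macrophages also held at 2545 and 2469.7 CPM, is not in that list and was at 15.9 and 5.82 CPM in stromal and 16.6 and 9.41 CPM in endothelial cells. The part of platelet RNA in the Itga2b values was not tested. Itga2b was highest in stromal cluster 3 (26.0 and 16.5 CPM) and cluster 12 (23.5 and 19.0 CPM) and lowest in cluster 24 (5.51 and 6.16 CPM) and cluster 4 (8.58 and 4.63 CPM). Itgb3, its partner in platelets, was highest in cluster 12 (94.2 and 52.8 CPM) and then in clusters 14 and 3 (25.9 and 11.8 CPM and 24.4 and 13.7 CPM), and was at 3.44 and 2.94 CPM in cluster 4.

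The shared beta1 chain Itgb1, which pairs with most of the alpha chains above, was found in every class. It was at 879 CPM (WT) and 976 CPM (F592A) in mural cells, 529 and 570.2 CPM in lymphatic, 480.1 and 552 CPM in endothelial and 469 and 514 CPM in stromal cells. Leukocytes were lower, with 248 and 257 CPM in macrophages, 194 and 276 CPM in T or NK cells, 172 and 228 CPM in dendritic cells and 109.9 and 171 CPM in neutrophils. After thinning, 80.2% and 80.3% of mural cells carried an Itgb1 UMI, against 20.5% and 30.0% of neutrophils.

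The leukocyte beta2 family was low outside the blood lineages. Itgb2 was at 274 CPM (WT) and 372 CPM (F592A) in neutrophils, 220.3 and 204 CPM in macrophages, 114 and 126 CPM in dendritic and 103 and 126 CPM in T or NK cells, and at 2.09 and 1.19 CPM in stromal cells. Itgam, the alpha chain of Mac-1, was at 301 and 401 CPM in neutrophils, 173 and 161 CPM in macrophages and 70.1 and 68.9 CPM in dendritic cells. Itgal, the alpha chain of LFA-1, was at 162 and 192 CPM in neutrophils and 92.7 and 168 CPM in T or NK cells. Itgax, the CD11c chain, was at 59.98 and 72.6 CPM in dendritic cells, 41.3 and 32.4 CPM in macrophages and 42.3 and 24.4 CPM in neutrophils. Itgae, the CD103 chain of tissue-resident T cells, was at 54.8 and 57.5 CPM in T or NK and 23.2 and 32.3 CPM in dendritic cells. Its partner Itgb7 was at 192 and 231 CPM and 92.6 and 115 CPM in the same classes. Itgad had 1 and 4 UMIs in all cells.

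Macrophages were not uniform in these genes. Cluster 16, led by Mmp12 and Gpnmb (286 and 133 cells), had Itgax at 216 and 256 CPM, against 7.70 and 6.23 CPM in cluster 0 (Ccl8, Pf4), the largest macrophage cluster. Cluster 37 (Retnla; 23 and 50 cells) came next at 73.7 and 93.3 CPM. Itgb2 followed, at 535 and 611 CPM in cluster 16 and 169.9 and 165 CPM in cluster 0, while Itgav went the other way, at 114 and 111 CPM and 215 and 191 CPM. Itga9 was likewise lower in cluster 16 (8.97 and 7.22 CPM) than in cluster 0 (29.3 and 23.4 CPM).

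Itga4 and Itga9 chains bind VCAM-1, fibronectin and matrix proteins of wound tissue. Itga4 was at 124 and 79.8 CPM in T or NK cells, 93.8 and 90.3 CPM in dendritic cells, 66.0 and 63.4 CPM in neutrophils and 54.7 and 52.8 CPM in macrophages. It was also read in mural cells, at 25.1 and 24.0 CPM, against 0.531 and 0.420 CPM in stromal and 0.268 and 0.809 CPM in endothelial cells. Macrophage markers were read in mural cells at a median of 1.63% and 0.651% of their macrophage level. Itga9 was at 112 CPM (WT) and 114 CPM (F592A) in lymphatic cells, 24.0 and 19.7 CPM in macrophages and 18.9 and 18.0 CPM in endothelial cells.

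The adaptors split between a mesenchymal and a leukocyte kindlin. Fermt2 (kindlin-2) was at 443 CPM (WT) and 514 CPM (F592A) in mural cells, 221 and 238 CPM in endothelial and 209 and 193 CPM in stromal cells, with 6.81 and 4.60 CPM in macrophages and 1.78 and 2.44 CPM in dendritic cells. Fermt3 (kindlin-3) was at 130.4 and 129 CPM in macrophages, 126 and 106 CPM in T or NK cells and 1.53 and 1.01 CPM in stromal cells. Fermt1, the epithelial kindlin, had 11 and 0 UMIs in all cells. Tln1, the talin of most cells, was at 331 and 362 CPM in mural cells and 275 and 274 CPM in macrophages, and lowest in stromal cells at 123 and 131 CPM. Tln2 was at 60.2 and 49.2 CPM in stromal and 44.2 and 42.0 CPM in mural cells and at 1.47 and 1.75 CPM in macrophages. Vcl (vinculin) was at 373 CPM (WT) and 355 CPM (F592A) in mural cells and 142 and 129 CPM in stromal cells, Ilk at 146 and 141 CPM and 76.8 and 72.8 CPM. Ptk2 (focal adhesion kinase) was at 71.5 and 66.4 CPM in mural, 68.7 and 73.3 CPM in lymphatic and 68.2 and 65.2 CPM in endothelial cells, which do not differ beyond their counting intervals, and at 33.99 and 31.1 CPM in stromal cells.

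Between the libraries most of these genes were close. In stromal cells 27 of the 34 were measured, and 0 were called higher and 4 lower in F592A (Itgb3, Itgam, Itgb2 and Fermt3). Of all 13927 measured genes in that class 3.38% were called higher and 5.05% lower. The median log2 ratio of the 27 was -0.08 and that of all measured genes was also -0.08. Itgb1 was at 469 CPM (WT) and 514 CPM (F592A) in stromal cells, a log2 ratio of 0.13 (0.12 to 0.15). The main tendon collagen receptor Itga11 had -0.03 (-0.06 to 0.01), and the alphav chain Itgav and its partner Itgb5 had -0.09 and -0.11. Further partners of alphav, Itgb3 and Itgb8, had -1.01 and 0.36. The adaptors Tln1, Fermt2, Vcl, Ilk and Ptk2 lay between -0.13 and 0.08, and Tln2 was at -0.29.

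**Figure D2:**
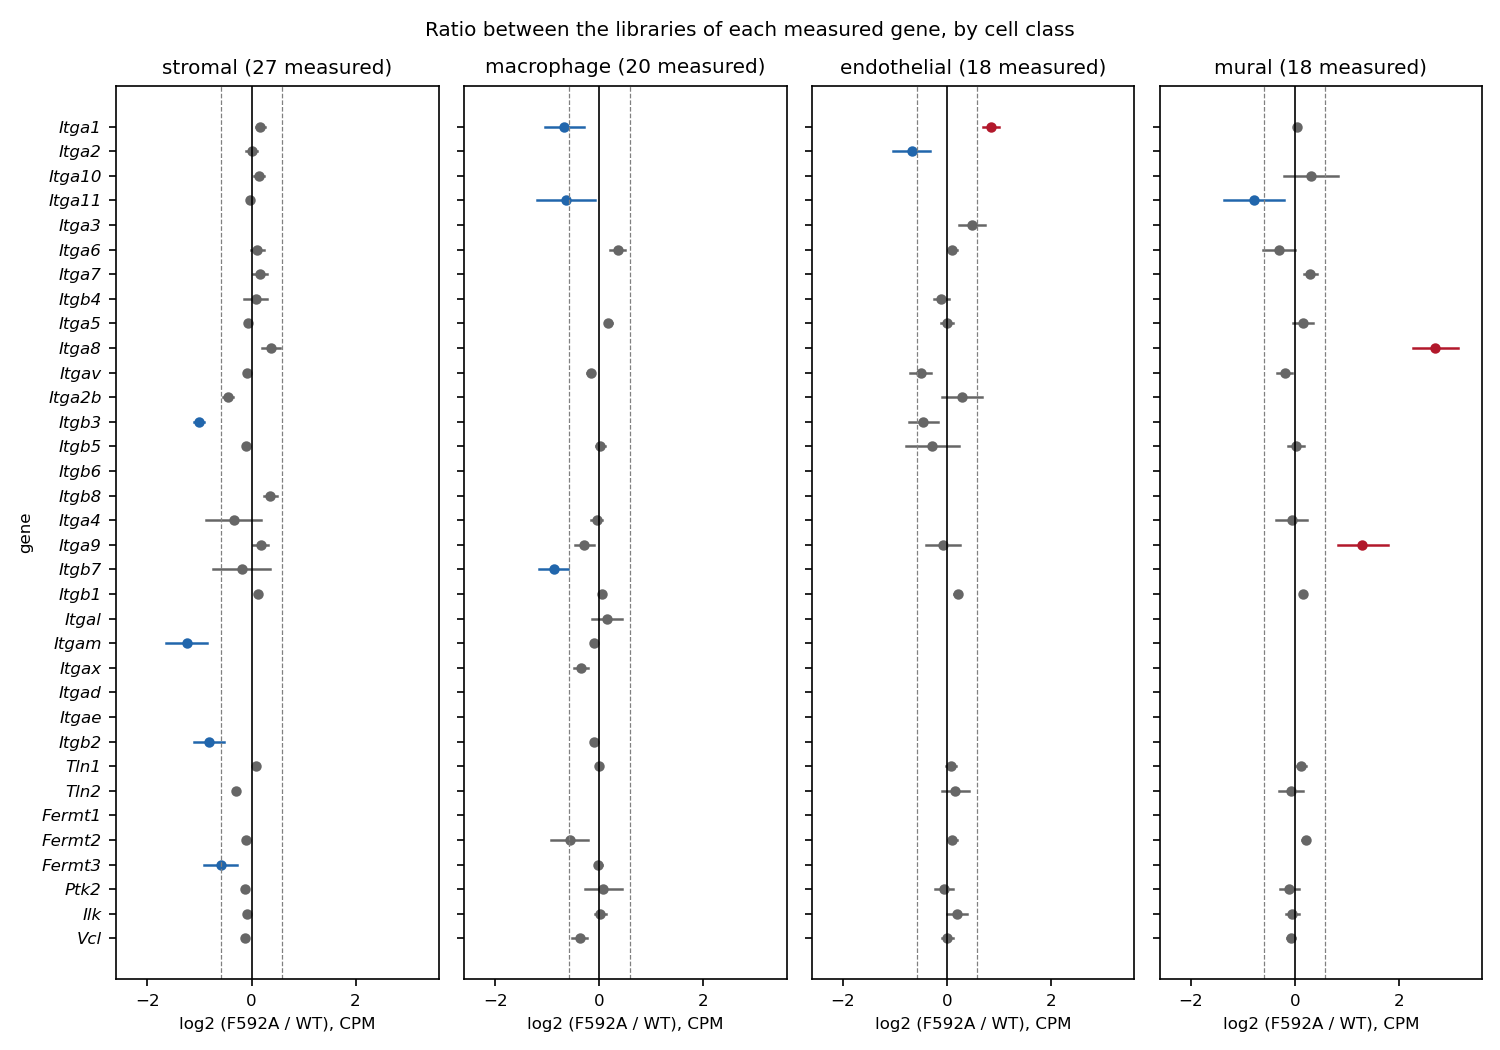
Log2 ratio of CPM, F592A over WT (horizontal axis), of each measured gene (rows) in 4 cell classes, with exact conditional 95% intervals for counting error as lines. Dashed lines mark a 1.5-fold difference. Red points are called higher, blue points lower and grey points neither, and Itga8 in mural cells lies farthest from 0.

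Itgb3, the beta3 chain of vitronectin and fibrin receptors (ENSMUSG00000020689, chromosome 11, 104608000 to 104670476, plus strand), was the member with the most UMIs among those called in stromal cells. It was at 21.4 CPM in the WT library (3349 UMIs, 95% interval 20.7 to 22.2) and 10.6 CPM in the F592A library (1290 UMIs, 10.0 to 11.2). WT was the higher library and the intervals did not overlap. The log2 ratio was -1.01 (-1.11 to -0.92). It was below 0 in all 6 stromal clusters where the gene was measured, from -1.14 to -0.30. In cluster 12 (Scara5, Efemp1, Cd55; 817 and 359 cells), which held the highest level, Itgb3 was at 94.2 and 52.8 CPM, a log2 ratio of -0.84. Without that cluster the class value was -0.66. After thinning, 3.52% of WT (exact binomial interval 3.08 to 4.01) and 2.11% of F592A stromal cells (1.71 to 2.57) carried an Itgb3 UMI. Among macrophages, which had the lowest share of the 4 main classes, the shares were 0.204% and 0.186% and the median stromal cell had 22618 and 25000 UMIs. Unthinned, the stromal shares were 23.0% and 16.1%.

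The other 3 lower genes were leukocyte genes read at very low level, Itgam (ENSMUSG00000030786, chromosome 7, 128062640 to 128118491, plus strand), Itgb2 (ENSMUSG00000000290, chromosome 10, 77530252 to 77565708, plus strand) and Fermt3 (ENSMUSG00000024965, chromosome 19, 6998958 to 7019469, minus strand). Itgam was at 1.44 and 0.609 CPM (-1.24, interval -1.64 to -0.86), Itgb2 at 2.09 and 1.19 CPM (-0.81, -1.10 to -0.52) and Fermt3 at 1.53 and 1.01 CPM (-0.59, -0.92 to -0.27). Beside them the 8 macrophage markers, all detected, summed to 197 and 81.7 CPM in stromal cells. Their part in the 3 values was not tested. With each cell assigned alone by its markers, Itgam was at -0.62, Itgb2 at -0.06 and Fermt3 at -0.12. After thinning, Itgam was at -2.32 and Fermt3 at -1.68. The thinned values rest on an Itgam UMI in 14 WT and 2 F592A cells and a Fermt3 UMI in 18 and 4. Fermt3 lay at the 1.5-fold limit (0.585 in log2) and was at -0.52 with TMM scaling, -0.52 with median-of-ratios scaling and -0.45 without the cycling cluster 14. The 3 genes next nearest to that limit were Itga2b (-0.45), Itga8 (0.37) and Itgb8 (0.36). Itga2b was below 0 in all 8 stromal clusters where it was measured.

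**Figure D3:**
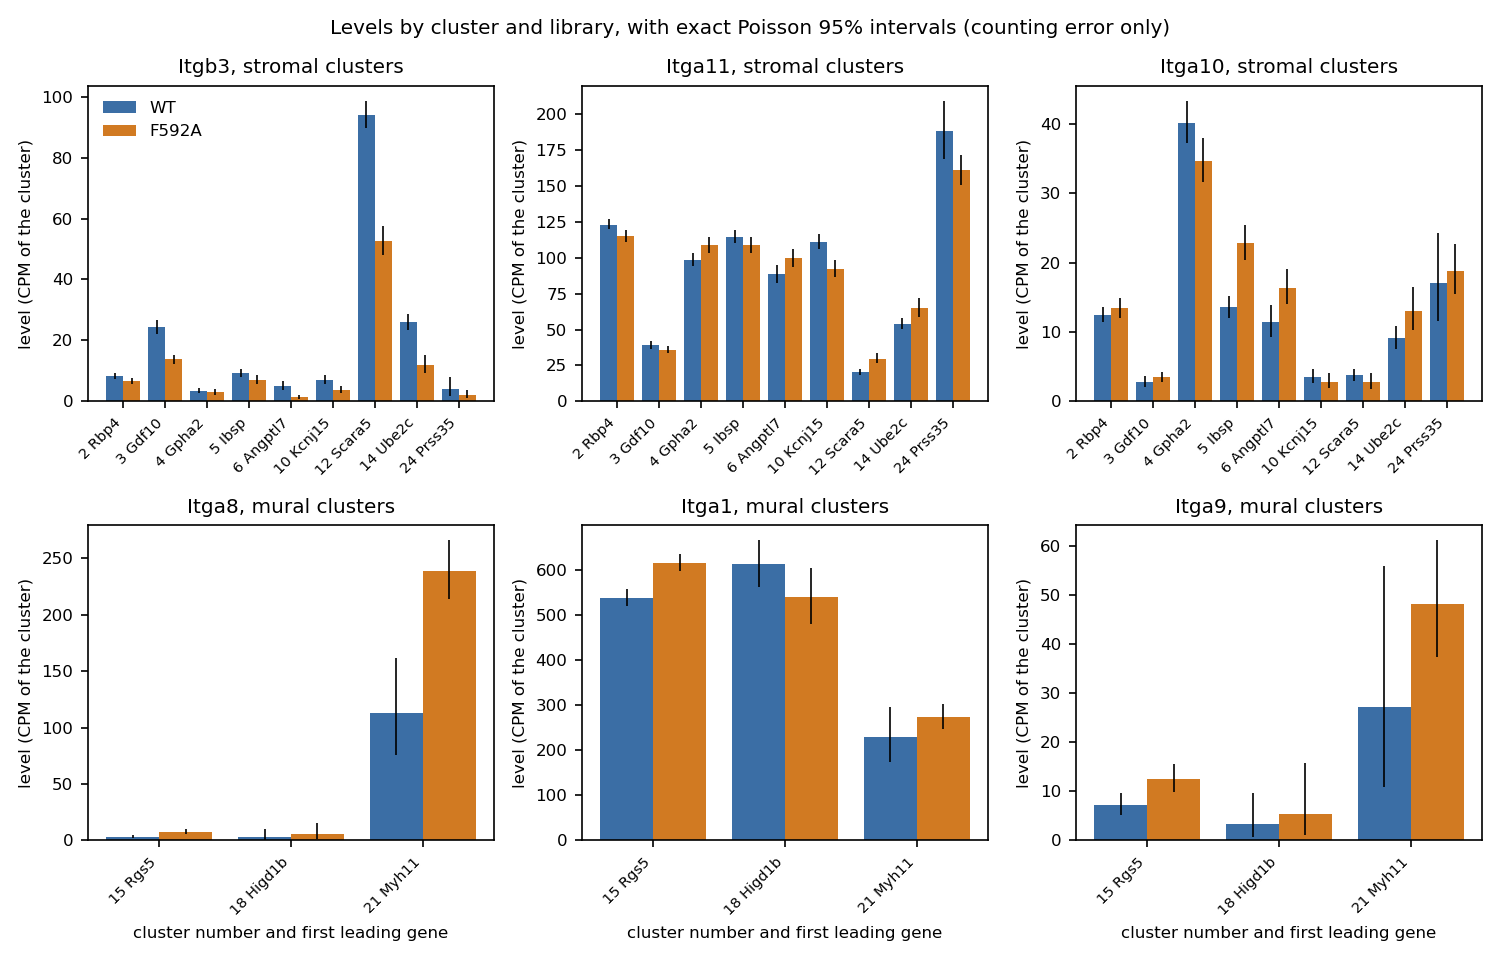
Level (CPM of the cluster) of Itgb3, Itga11 and Itga10 in stromal clusters and of Itga8, Itga1 and Itga9 in mural clusters, for clusters with at least 10 cells in each library. Bars are WT (blue) and F592A (orange), lines are exact Poisson 95% intervals, and labels give the cluster number with its first leading gene. Itgb3 is highest in cluster 12 and Itga8 in cluster 21.

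In macrophages 20 genes were measured, with 0 called higher and 3 lower in F592A, against 2.26% and 2.99% of all 10073 measured genes. The median log2 ratio was -0.08 for the 20 and -0.07 for all. The macrophage integrins themselves were close, with Itgam at -0.10, Itgb2 at -0.11, Itgav at -0.17, Itga5 at 0.18, Itgb1 at 0.05, Fermt3 at -0.02 and Tln1 at -0.01. Itgax was at -0.35 over the class, and at 0.24 inside cluster 16, which held most of its RNA and 286 WT and 133 F592A cells. Itga6 (0.35), Fermt2 (-0.57) and Vcl (-0.38) were the next nearest to the limit. After thinning, Fermt2 was at -0.99 (a UMI in 36 WT and 12 F592A cells) and Vcl at -0.77 (in 183 and 72), both past it. With cells gated one by one Fermt2 was at -0.87.

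Itgb7, the partner of Itga4 and Itgae (ENSMUSG00000001281, chromosome 15, 102215995 to 102231944, minus strand), was the macrophage member called with the most UMIs, at 12.8 CPM in the WT library (349 UMIs, 95% interval 11.5 to 14.3) and 7.01 CPM in the F592A library (160 UMIs, 5.96 to 8.18). The log2 ratio was -0.88 (-1.15 to -0.60), and -0.64 without cluster 0. In cluster 0 the gene was at 6.56 and 3.52 CPM, in cluster 11 (H2-Eb1) at 22.4 and 10.9 CPM and in cluster 16 at 30.5 and 23.7 CPM. After thinning to 2000 UMIs the log2 ratio was -0.32, short of 1.5-fold, with an Itgb7 UMI in 52 WT and 28 F592A cells. The 5 mast cell markers, all detected, summed to 28.3 and 0.832 CPM in macrophages, and the 8 dendritic markers to 14.9 and 24.3 CPM, with Clec9a at 0 in WT. Their part in the Itgb7 value was not tested.

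Itga1 (6.41 and 4.03 CPM, -0.67, interval -1.05 to -0.30) and Itga11 (2.98 and 1.93 CPM, -0.63, interval -1.19 to -0.08) were the other macrophage genes called lower. Their levels were 1.196% and 0.731% of the mural level for Itga1, and 3.37% and 2.22% of the stromal level for Itga11. Mural markers were read in macrophages at a median of 0.168% and 0.120%, and stromal markers at 2.32% and 1.97%. The part of free RNA in these values was not tested. Without cluster 0, Itga1 was at -0.32, and with clusters weighted equally Itga1 was at -0.22 and Itga11 at -0.28.

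In endothelial cells 18 genes were measured, with 1 called higher and 1 lower, against 2.51% and 8.71% of all 8899 measured genes. Their median log2 ratio was 0.05, that of all measured genes -0.09. The laminin receptor chains Itga6 and Itgb4 had 0.10 and -0.11, and Itgb1 had 0.20 (0.14 to 0.26). The adaptors and kinases measured here lay between -0.07 (Ptk2) and 0.18 (Ilk).

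Both called endothelial genes are collagen receptor chains, and both lie on chromosome 13, on the same strand. Itga1 (ENSMUSG00000042284, chromosome 13, 114953096 to 115101964, minus strand) was at 61.7 CPM in the WT library (460 UMIs, 95% interval 56.2 to 67.6) and 111 CPM in the F592A library (1094 UMIs, 104 to 117), a log2 ratio of 0.84 (0.68 to 1.003). F592A was the higher library and the intervals did not overlap. After thinning, 10.7% of WT (8.21 to 13.6) and 17.3% of F592A endothelial cells (14.4 to 20.5) carried an Itga1 UMI, at median depths of 10797 and 14309 UMIs, and 36.9% and 53.5% before thinning. Pericyte marker RNA was also higher in F592A endothelial cells. The 5 pericyte markers were all detected and summed to 24.8 and 98.4 CPM there, a median of 0.288% and 1.09% of their mural level, while Itga1 was at 11.5% and 20.1% of its mural level. Their part in the Itga1 value was not tested.

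Itga2 (ENSMUSG00000015533, chromosome 13, 114833081 to 114932100, minus strand) was at 20.3 CPM in the WT library (151 UMIs, 95% interval 17.2 to 23.8) and 12.6 CPM in the F592A library (125 UMIs, 10.5 to 15.1), a log2 ratio of -0.68 (-1.03 to -0.33). The log2 ratio was -0.09 after thinning, below 1.5-fold, with an Itga2 UMI in only 14 WT and 15 F592A cells. The next nearest to the limit were Itgav (54.7 and 38.5 CPM, -0.51), Itgb3 (30.2 and 22.1 CPM, -0.45) and Itga3 (27.8 and 38.6 CPM, 0.48). Itgav and Itgb3 are the 2 chains of the vitronectin receptor, and both ratios lay below 0.

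In mural cells 18 genes were measured, with 2 called higher and 1 lower, against 3.99% and 8.41% of all 8792 measured genes. The median log2 ratio was 0.03 for the 18 and -0.09 for all. The genes for which mural cells lead were close between the libraries, with Itga1 at 0.04, Itgb1 at 0.15, Tln1 at 0.13, Fermt2 at 0.21, Ilk at -0.05, Vcl at -0.07 and Itga7 at 0.30. Itga7, Itga10 (0.31, -0.21 to 0.84) and Itga6 (-0.30, -0.61 to 0.01) were the next nearest to the limit. After thinning, Itga10 was at 0.83 (a UMI in 11 WT and 19 F592A cells) and Itga6 at -0.75 (in 22 and 14), both past it. The Itga10 ratio was below 0 with clusters weighted equally (-0.46) and with cells gated one by one (-0.35).

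Itga8, the alpha8 chain that pairs with beta1 and is known from smooth muscle and kidney (ENSMUSG00000026768, chromosome 2, 12106632 to 12301922, minus strand), had the log2 ratio farthest from 0 of the measured members in the 4 classes. It was at 7.39 CPM in the WT library (51 UMIs, 95% interval 5.51 to 9.72) and 47.7 CPM in the F592A library (383 UMIs, 43.0 to 52.7), a log2 ratio of 2.69 (2.26 to 3.14). The F592A library was the higher one, with no overlap of the intervals. Most of this RNA was in cluster 21, led by the smooth muscle gene Myh11, where Itga8 was at 113 and 239 CPM, a log2 ratio of 1.09. In cluster 15 (led by the pericyte gene Rgs5; 557 and 501 cells) it was at 3.31 and 7.88 CPM. Cluster 21 held 21 WT and 95 F592A cells, and without it the class value was 1.21. After thinning, 0.504% of WT and 5.75% of F592A mural cells carried an Itga8 UMI (5.33% and 17.5% unthinned), against 0.0817% and 0.0619% of macrophages.

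Itga9 (ENSMUSG00000039115, chromosome 9, 118606690 to 118901003, plus strand) was at 7.39 CPM in the WT library (51 UMIs, 95% interval 5.51 to 9.72) and 18.2 CPM in the F592A library (146 UMIs, 15.3 to 21.4), a log2 ratio of 1.30 (0.83 to 1.79). Itga9 was at 27.2 and 48.2 CPM in cluster 21 and 7.14 and 12.5 CPM in cluster 15, and the class value was 0.84 without cluster 21 and 2.06 without cluster 15. Itga11 (ENSMUSG00000032243, chromosome 9, 62677826 to 62783982, plus strand) was lower, at 9.42 CPM in the WT library (65 UMIs, 95% interval 7.27 to 12.0) and 5.48 CPM in the F592A library (44 UMIs, 3.98 to 7.35), a log2 ratio of -0.78 (-1.37 to -0.21), and -0.53 without cluster 21. Stromal markers were read in mural cells at a median of 5.77% and 4.95% of their stromal level and Itga11 at 10.7% and 6.31%. The 4 red cell markers summed to 93.1 and 469 CPM and the 5 smooth muscle markers to 5784 and 5224 CPM in mural cells. Their part in the 3 mural values was not tested.

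**Figure D4:**
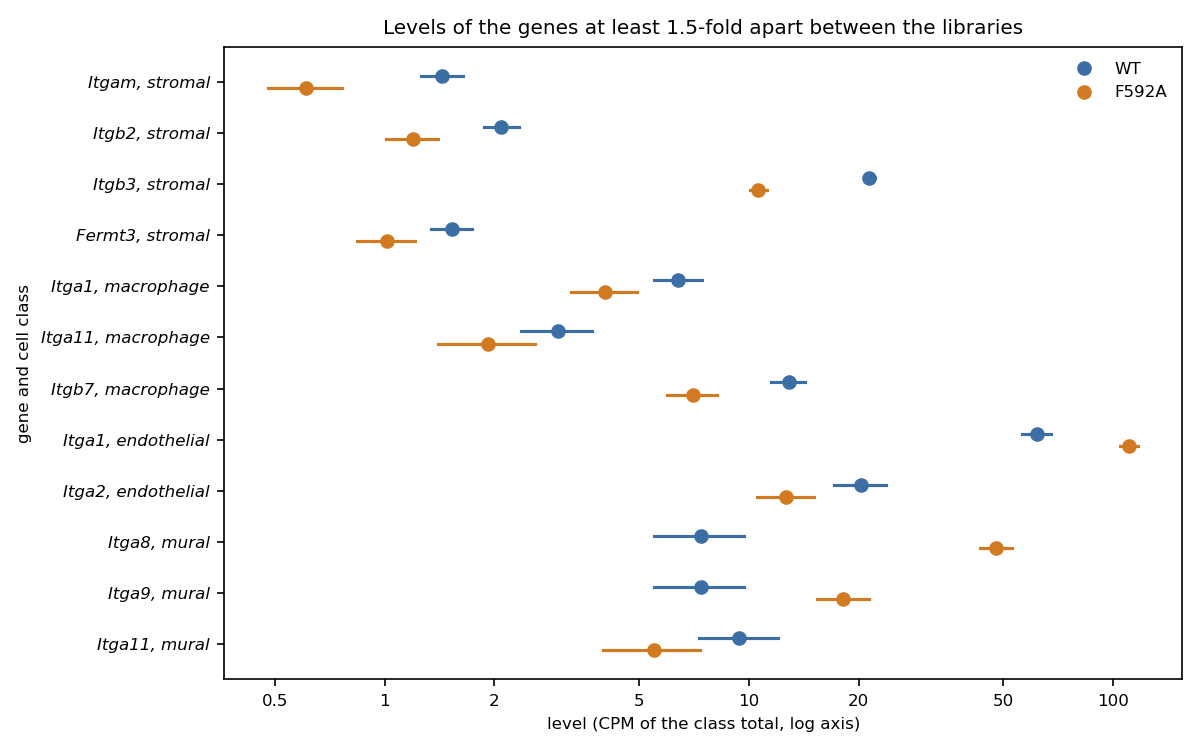
Level (CPM of the class total, log axis) in WT (blue) and F592A (orange) of the 12 gene and class pairs at least 1.5-fold apart. Lines are exact Poisson 95% intervals, which overlap between the libraries only for Itga11, in macrophages and in mural cells.

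Other genes of the adhesion complex were called at shares to be read against the same percentages of all genes as the members. Of 40 further adhesion genes, 39 were measured in stromal cells with 0 called higher and 2 lower, 34 in macrophages with 0 and 1, 36 in endothelial cells with 1 and 1, and 37 in mural cells with 2 and 1. Of all measured genes 3.38%, 2.26%, 2.51% and 3.99% were called higher and 5.05%, 2.99%, 8.71% and 8.41% lower in these classes. The adhesion genes' median log2 ratios were -0.08, -0.01, 0.05 and 0.0046 in these 4 classes, beside -0.08, -0.07, -0.09 and -0.09 for all measured genes. In stromal cells the 4 farthest from 0 were Parvb, a parvin that binds integrin-linked kinase (1.26 and 0.741 CPM, log2 ratio -0.77), Ptk2b, the kinase Pyk2 (1.78 and 1.06 CPM, log2 ratio -0.75), Apbb1ip, the talin recruiter RIAM (-0.46), and the GTPase Rap1a (-0.43). In macrophages they were Parva (2.87 and 1.80 CPM, log2 ratio -0.68), Tes (-0.49), Src (0.47) and Arhgef6 (0.46). Parva was at 98.2 and 89.0 CPM in stromal cells. Stromal markers were read in macrophages at a median of 2.32% and 1.97% of their stromal level. The part of stromal RNA in the macrophage Parva value was not tested. In endothelial cells Ptk2b was higher (5.64 and 10.4 CPM, log2 ratio 0.89) and the tensin Tns3 lower (26.3 and 15.8 CPM, log2 ratio -0.74), followed by Tgfb1i1 (-0.51) and Tns1 (0.48). In mural cells Kank1, a talin-binding protein, was higher (11.7 and 23.5 CPM, log2 ratio 1.003), as was the actin crosslinker Flna (390.1 and 661 CPM, log2 ratio 0.76), and Apbb1ip was lower (13.8 and 3.49 CPM, log2 ratio -1.98). Tns1 was at 0.56. Without the Myh11 cluster 21 (21 WT and 95 F592A cells), Kank1 was at 0.69, Flna at 0.34 and Tns1 at 0.35, the last 2 short of 1.5-fold, and Apbb1ip at -1.75. Macrophage markers summed to 501 and 144 CPM in mural cells, and their part in the Apbb1ip value was not tested.

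Genes for integrin ligands were read in the same way. Of 33, 30 were measured in stromal cells with 1 called higher and 0 lower, 24 in macrophages with 0 and 5, 29 in endothelial cells with 0 and 4, and 28 in mural cells with 2 and 3. Of all measured genes 5.05%, 2.99%, 8.71% and 8.41% were called lower in these classes, and the difference between classes was not tested. The ligand genes' medians were -0.0011, -0.22, -0.23 and -0.18 in the same order. In stromal cells the collagen IV chains Col4a2 (79.5 and 129 CPM, log2 ratio 0.70) and Col4a1 (0.53), ligands of alpha1, were farthest from 0, followed by Icam1 (0.48) and the laminin chain Lama2 (0.45). In macrophages osteopontin (Spp1) was at 2878 and 1438 CPM, the ratio farthest from 0 there, with Fbn1 at -0.92, Ccn2 at -0.71 and fibronectin (Fn1) at -0.62. In endothelial cells Spp1 was at 164 and 21.05 CPM (-2.96), Col6a1 at -0.84, Ccn2 at -0.76 and Ccn1 at -0.59. In mural cells Ltbp1, which tethers latent TGF-beta, was at 19.3 and 45.8 CPM (1.25) and the laminin chain Lama5 at 35.5 and 80.6 CPM (1.18), with Ccn2 at -0.96 and tenascin-C (Tnc) at -0.90. Without cluster 21, Ltbp1 was at 0.10 and Lama5 at 0.46, both short of 1.5-fold, with Ccn2 at -0.89 and Tnc at -0.80. Fbn1 and Col6a1 are also made by stromal cells, which held Fn1 at 6508 and 6279 CPM and Ccn2 at 371 and 308 CPM. Ccn1 was at 187 and 227 CPM there, Tnc at 370 and 314 CPM and Spp1 at 628 and 699.5 CPM. The 8 stromal markers summed to 1688 and 1643 CPM in macrophages and 3318 and 2562 CPM in endothelial cells. In mural cells they summed to 9195 and 6352 CPM. The 8 macrophage markers summed to 226.5 and 117 CPM in endothelial cells. The part of stromal and macrophage RNA in these ligand values was not tested.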

How the data were processed

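The authors deposited 1 filtered table of raw UMI counts per library (mm10). Cell Ranger is named with version 6.0.1 per the file headers and 2.1.1, beside Seurat, per the submitters' processing notes. Cells were kept from 500 genes and 1000 UMIs upward, up to a mitochondrial share of 15% (scanpy 1.11.5, Python 3.11.15). Scrublet removed 345 WT (2.97%) and 215 F592A (2.48%) cells as doublets. Clusters came from 2000 variable genes without the members, 30 principal components and Leiden clustering at a resolution of 0.8. Mixed clusters were split again at 0.5, a step chosen after seeing the data, which gave 43 clusters. A cluster was named from marker lists, and 458 WT and 378 F592A cells stayed unnamed.

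Raw counts were summed per class and library and divided by the class total (CPM). Intervals are exact Poisson (levels), exact conditional binomial (ratios) and exact Clopper-Pearson (shares) at 95% (scipy 1.17.1) and cover counting error only. The ratio intervals alone were checked, on counts simulated for the stromal class. Those counts followed the Poisson model that the intervals assume, so the check covers the calculation and no other source of error. A class was compared between libraries with at least 500 cells in each. Genes were named between libraries when at least 1.5-fold apart, with the 3 next nearest the limit, Itgb1, and the 4 farthest from 0 of each further list. Alternatives were edgeR 4.0.16 TMM and DESeq2 1.42.0 median-of-ratios scaling (R 4.3.3), other filters, thinning to 2000 UMIs, equal cluster weights and cells gated one by one. Leaving out single clusters or cells with shared barcodes was chosen after seeing the data. Gene coordinates are GENCODE M21 on GRCm38. The members and lists were chosen with earlier results of these data known.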

Additional observations from a re-analysis of the deposited data

Results flagged for a closer look

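Itga1 differed between the libraries in opposite directions in 2 classes. Its log2 ratio was 0.84 in endothelial cells and -0.67 in macrophages, and the difference between the classes was not tested.

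Small groups of cells that were not compared as a class also held member RNA above every large class. In the 21 Schwann-like cells (13 WT and 8 F592A), Itgb8, the beta8 chain that acts with alphav on latent TGF-beta, was at 504.5 CPM (41 and 51 UMIs), against 18.8 CPM in T or NK cells, the highest of the 8 classes. Itga2 was at 54.8 CPM in the same cells, with all 10 UMIs in the WT library, against 15.9 CPM in endothelial cells. In 11 cells gated as mast cells (3 WT and 8 F592A), the platelet alphaIIb chain Itga2b was at 190.0 CPM (4 and 15 UMIs), against 14.7 CPM in endothelial cells. Itga4 was at 380.0 CPM in these cells (9 and 29 UMIs), against 95.7 CPM in T or NK cells. Of the 11 cells, 1 lay in the macrophage class, which was compared, and 10 in no named class.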

How the results depend on the processing

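Of 134 values of counts and medians under alternatives, 111 kept within a set limit. For counts the limit was 1.5 times the main count. For medians it was the typical counting error of a single member's ratio, which is not the error of the median itself. Of 390 values of named ratios 333 kept within their counting error, 57 moved past it and 0 reversed a call. Only ratios of called genes could count as reversed, and the uncalled Itga10 in mural cells did change sign. Values without a single cluster share most UMIs with the main value. With these set aside, 196 of 240 kept within their counting error. Fermt3 in stromal cells was past the fold in 10 of 19 alternatives and Itga11 in macrophages in 8 of 16. With at least 20 UMIs, 2 members were higher in stromal, 2 in macrophage and 2 in endothelial cells, and 5 were lower in macrophage, 4 in endothelial and 4 in mural cells. With at least 500 UMIs, 1 was lower in stromal and 1 in macrophage cells, 0 in endothelial and 0 in mural cells, and 0 were higher in mural cells. At a fold of 2, 2 were lower in stromal cells and 0 in macrophage, endothelial and mural cells, and 0 were higher in endothelial cells. After thinning to 2000 UMIs, 1 was higher in stromal and 3 in endothelial cells, and 0 were lower in endothelial and 2 in mural cells. The limit of 100 UMIs was applied before thinning, so these counts can rest on few UMIs. With cells gated one by one 2 were lower in stromal cells, with doublets kept 3 were lower in endothelial cells, and without clusters mostly of 1 library 0 were lower in mural cells. The share of all measured genes called was computed only for the main setting. These other counts of members therefore cannot be set against it. The causes were not tested. Equal weighting gave no value in endothelial cells, which form 1 cluster. The leading class was the same for 24 of 26 members in WT alone, 25 in F592A alone, 24 with cells gated one by one and 26 with members kept among the variable genes. No paired analysis was possible because each genotype has 1 library and no test was made. Counts below 100 UMIs and the spread between animals limit what can be told apart.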

Other observations

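In the 13 WT and 8 F592A Schwann-like cells the laminin receptor chains Itga7 and Itgb4 were at 105 and 73.3 CPM and 96.3 and 117 CPM. A single UMI amounts to 8.76 CPM (WT) and 14.7 CPM (F592A) there, so these values rest on few UMIs.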
